A study of Xenopus laevis with 46 samples.

Results

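The genes nodal1, nodal5 and nodal6 of the clawed frog Xenopus laevis encode Nodal ligands of endoderm and mesoderm. They were followed through the blastula in RNA captured to enrich what was newly made, though how much of it was newly made was not tested. Members were chosen by name: every gene whose symbol was nodal1, nodal5 or nodal6, with or without a tandem copy number, on either subgenome (the suffix .L or .S). This gave 9 of the 49233 distinct gene names: nodal1.L, nodal1.S, nodal5.L, nodal5.2.L, nodal5.5.L, nodal5.6.L, nodal5.8.L, nodal6.L and nodal6.S. Copies of nodal3 were not members. The nodal genes of this frog include near-identical tandem copies, and the sources used here do not say how reads were divided between such copies, so a value of a single copy is uncertain where copies share sequence.

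Regions came from wild-type embryos, kept at 22 °C, that had received 10 nl of 50 mM 5-ethynyl uridine (EU) at the 1-cell stage, about 0.5 mM in the embryo. EU is a uridine analog that enters RNA as it is made and lets that RNA be captured through biotin. No library without EU was among the 46 analysed. The vegetal pole region (VP) and the animal pole region (AP) were cut out at 5, 6, 7, 8 and 9 hours after fertilisation (hpf). Experiment 1 had 3 clutches, giving 3 VP and 3 AP libraries at each of the 5 times, 30 in all, with 1 clutch per library. Experiment 2 had 1 further clutch, sampled from 6 to 9 hpf, and each region and time of it was read as 2 technical replicates, 16 libraries in all. In the text, replicates 1, 2 and 3 are the libraries of experiment 1, each from a different clutch within a region and time, and replicates 4 and 5 are the technical replicates of experiment 2. The labels do not say whether a number marks the same clutch in both regions or at all times. Each library holds a dissected piece of tissue with several cell types, so fewer cells of a type and less RNA per cell cannot be told apart.

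Nodal ligands are secreted proteins of the transforming growth factor beta family. A proprotein convertase cuts the precursor, the mature ligand binds activin receptors together with a co-receptor of the Cripto kind, and the signal passes through Smad2 or Smad3 with Smad4 and the DNA-binding partner Foxh1 to genes of mesoderm and endoderm. In Xenopus, nodal5 and nodal6 are known as early zygotic genes that the maternal vegetal factor VegT activates together with beta-catenin, and nodal1 is known as a later inducer of mesoderm and endoderm that responds to Nodal signals itself.

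The 9 genes were read almost entirely in the vegetal region. Over all 9 genes, 84 of 207 values in VP libraries were above 0, against 7 of 207 in AP libraries. Among all 19896 genes tested, the order of the regions was the other way, with 60.04% of VP values and 69.97% of AP values above 0. Of the 7 AP values above 0, the highest was 70 normalized read counts, and 3 of them lay in replicate 2 at 7 hpf. In the VP libraries of experiment 1, values above 0 numbered 3, 3, 9, 11 and 17 of 27 at 5, 6, 7, 8 and 9 hpf. In experiment 2 they numbered 8, 2, 15 and 16 of 18 at 6, 7, 8 and 9 hpf in VP, against 1, 1, 0 and 0 of 18 in AP.

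Libraries differed in how many genes were listed above 0, and the emptiest VP libraries were also low in members. Totals of the normalized counts lay between 1783721 and 3273514 per library, and genes above 0 between 4137 and 21140. A listed 0 does not show that a gene was silent: of 125 genes of ribosomal proteins, 0 to 114 per library were listed at 0, with a median of 28. The emptiest library was VP replicate 2 at 8 hpf, with 4137 genes above 0, 114 of the 125 ribosomal protein genes at 0 and all 9 members at 0. In experiment 2, both VP libraries at 7 hpf were nearly as empty, with 7306 and 4364 genes above 0, and each had 1 member above 0. How far sparse libraries set the level of the members was not tested, and values are given library by library. The summed counts of 9 vegetal marker genes separated the regions, at 7649 to 15698 in VP and 316 to 1500 in AP in experiment 1. Detection alone did so less evenly. The germ plasm gene grip2.L was above 0 in 23 of 23 VP libraries, against 9 of 23 AP libraries. But vegt.S was above 0 in 22 VP and 23 AP libraries, with medians of 1291 and 139. For velo1.L it was 22 of each, with medians of 933 and 309. At 9 hpf, summed counts of 18 animal marker genes were 3270 to 4363 in VP and 5055 to 21008 in AP in experiment 1, and 7415 to 7912 in VP and 20580 to 22653 in AP in experiment 2, so the VP sums of experiment 2 exceeded the lowest AP sum of experiment 1.

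**Figure D1:**
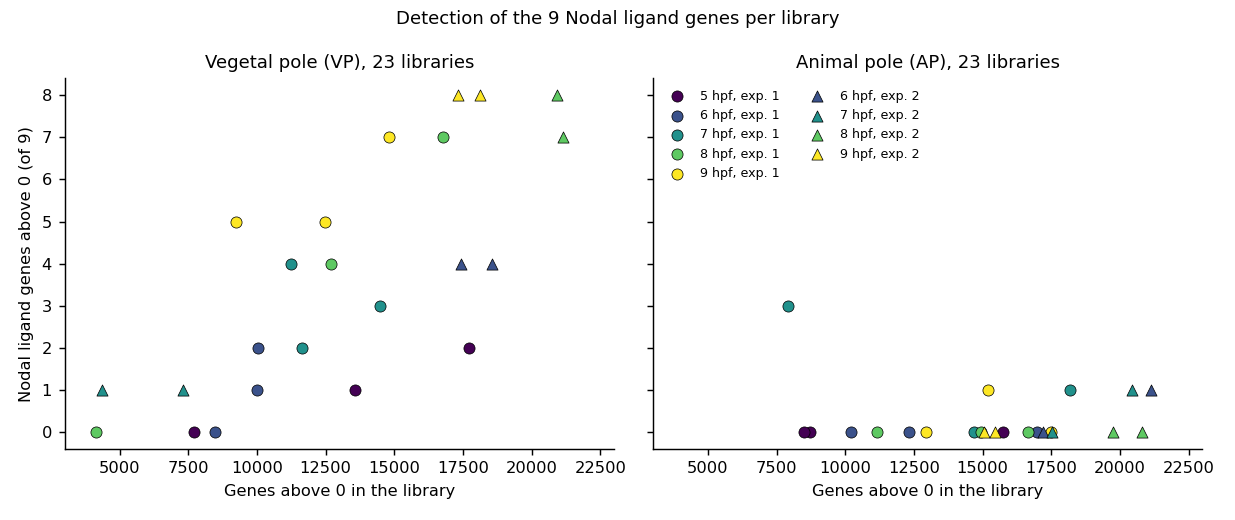
Number of the 9 Nodal ligand genes above 0 (vertical axis) against the number of all genes above 0 (horizontal axis) in each library, with VP in the left panel and AP in the right, coloured by time, circles for experiment 1 and triangles for experiment 2. VP libraries at 8 and 9 hpf reach 7 or 8 genes while VP replicate 2 at 8 hpf, at 4137 genes, has 0; AP libraries stay at 0 to 3 over a range of 7910 to 21140 genes.

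The early ligand copy nodal5.2.L was above 0 in 15 of 23 VP libraries. In VP of experiment 1 its normalized read counts in replicates 1, 2 and 3 at 5 hpf were 0, 4 and 0, then 0 in all 3 at 6 hpf, then 80, 141 and 211 for 7 hpf, 774, 0 and 88 for 8 hpf, and 1495, 654 and 680 for 9 hpf. In VP of experiment 2, replicates 4 and 5 counted 25 and 34 for 6 hpf, then 0 and 0 for 7 hpf, 419 and 350 for 8 hpf, and 1827 and 1910 for 9 hpf. It was listed at 0 in all 23 AP libraries. The 3 clutches of experiment 1 were thus all low at 5 and 6 hpf and all higher at 7 hpf. Values at 7 hpf did not overlap with those of either earlier time. The share of all genes separated in this way was not counted, and the fit described further below gave no call for 7 against 5 hpf. Values at 7 and 8 hpf overlapped, and so did those at 8 and 9 hpf. In experiment 2 the gene was read already at 6 hpf and was back at 0 in the 2 sparse libraries at 7 hpf.

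Its neighbour nodal5.L was read in 11 of 23 VP libraries and in none of 23 AP libraries. VP values of replicates 1, 2 and 3 were 0 in all at 5 hpf, then 130, 0 and 58 for 6 hpf, 0, 35 and 0 for 7 hpf, 316, 0 and 0 for 8 hpf, and 441, 238 and 0 for 9 hpf. In experiment 2, the VP pair read 25 and 0 for 6 hpf, then 0 and 0 for 7 hpf, 169 and 214 for 8 hpf, and 452 and 433 for 9 hpf. This copy was therefore above 0 in 2 of 3 clutches at 6 hpf, when nodal5.2.L was at 0 in those clutches, and every pair of times in experiment 1 overlapped. The 0 at 9 hpf lay in replicate 3, where 87 of the 125 ribosomal protein genes were also at 0. That library had 5 of the 9 members above 0, among them nodal5.2.L at 680 and nodal6.L at 734. What set the 0 of nodal5.L was not tested.

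The other early ligand, nodal6, was read from both subgenomes. For nodal6.L, VP values of replicates 1, 2 and 3 at 5 hpf were 93, 0 and 0, then 0, 0 and 169 for 6 hpf, 135, 214 and 0 for 7 hpf, 670, 0 and 10 for 8 hpf, and 558, 318 and 734 for 9 hpf. Replicates 4 and 5 counted 18 and 13 for 6 hpf, then 0 and 610 for 7 hpf, 162 and 241 for 8 hpf, and 911 and 785 for 9 hpf, and all 23 AP libraries were at 0. So nodal6.L was above 0 in at least 1 clutch at every time in VP, including 1 of 3 clutches at 5 hpf. In experiment 1 the 9 hpf values lay above those of 5, 6 and 7 hpf without overlap and overlapped with 8 hpf. Of all genes tested, 5.44% lay above 5 hpf in this way, and shares for 6 and 7 hpf were not counted. In experiment 2 the 9 hpf values of nodal6.L lay above all earlier values, 610 at 7 hpf being the highest of these.

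For nodal6.S, VP values of replicates 1, 2 and 3 were 0 throughout for 5 and 6 hpf, then 285, 0 and 99 for 7 hpf, 250, 0 and 0 for 8 hpf, and 83, 2 and 451 for 9 hpf. In experiment 2, the VP pair read 32 and 34 for 6 hpf, then 0 and 0 for 7 hpf, 141 and 138 for 8 hpf, and 487 and 498 for 9 hpf. In AP it was read once, at 64 in replicate 2 at 7 hpf. In the clutches of experiment 1, values at 7, 8 and 9 hpf overlapped, and in the clutch of experiment 2 the 9 hpf values were above all earlier ones.

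The later ligand nodal1.L was first above 0 at 8 hpf in VP of experiment 1 and at 6 hpf in that of experiment 2. In VP of experiment 1 it was listed at 0 in every library at 5, 6 and 7 hpf, then counted 212, 0 and 65 for 8 hpf and 629, 401 and 970 for 9 hpf. In VP of experiment 2 it counted 0 and 8 for 6 hpf, then 560 and 0 for 7 hpf, 120 and 116 for 8 hpf, and 1265 and 985 for 9 hpf. Among AP libraries it was above 0 in 3 of 23, at 14 in replicate 1 at 7 hpf, 70 in replicate 2 at 9 hpf and 5 in replicate 4 at 6 hpf. At 7 hpf, nodal5.2.L was thus above 0 in 3 of 3 VP clutches of experiment 1 and nodal1.L in 0 of 3. In the sparse VP libraries of experiment 2 at 7 hpf the order was the other way. There nodal5.2.L was at 0 and 0 and nodal1.L at 560 and 0. The difference between the genes in time of appearance was not tested.

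**Figure D2:**
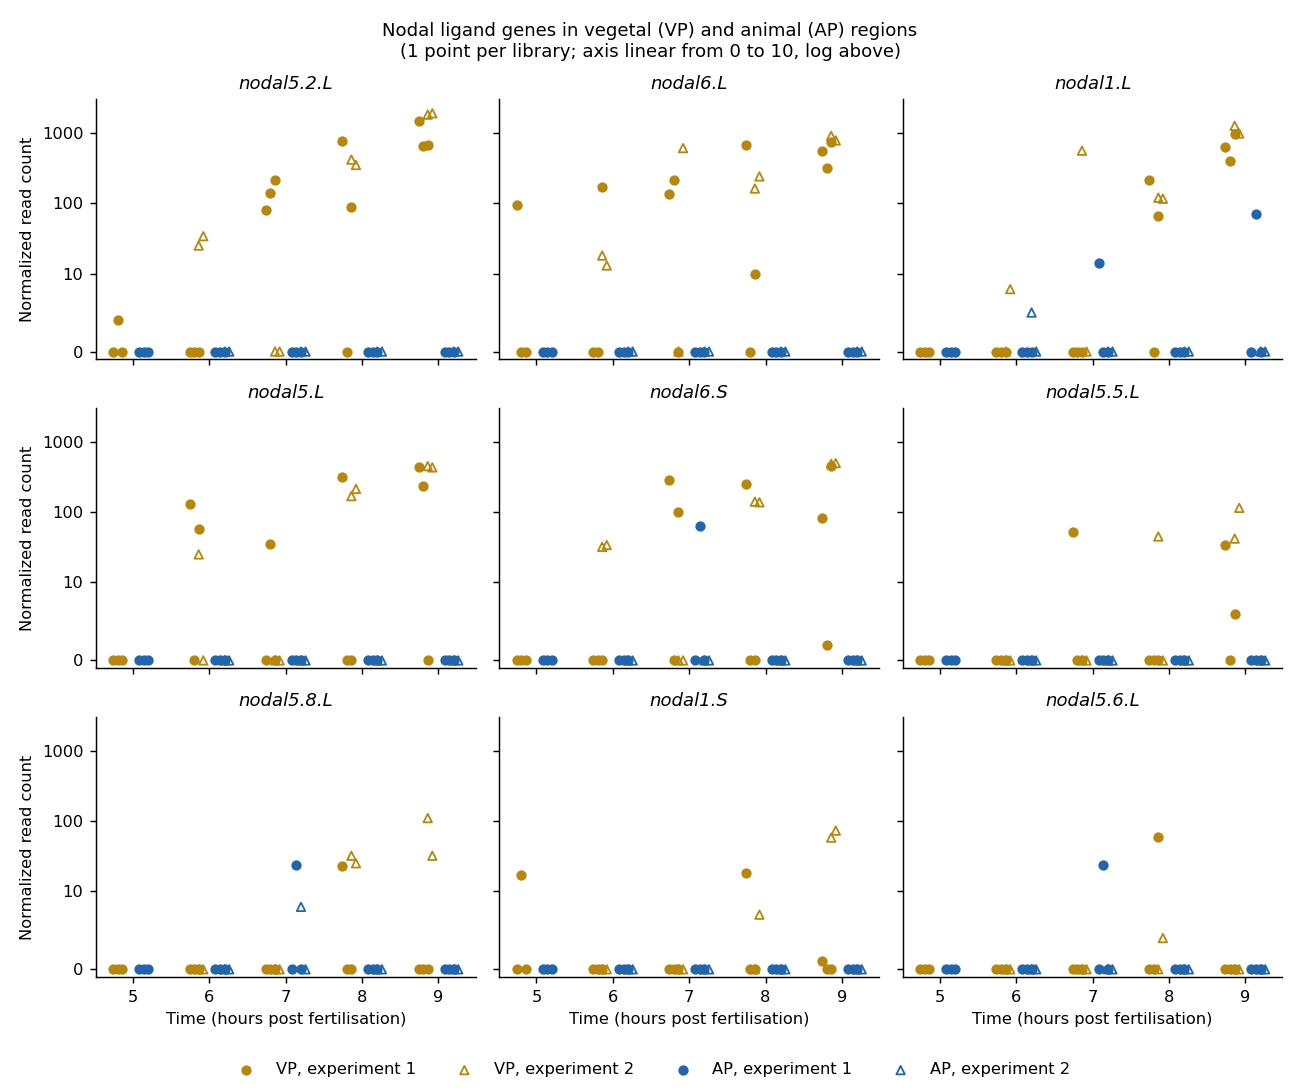
Normalized read count (vertical axis, linear to 10 and logarithmic above) against time in hours post fertilisation for each of the 9 Nodal ligand genes, 1 point per library, VP left and AP right of each time, filled circles for experiment 1 and open triangles for experiment 2. At 9 hpf the VP points of nodal5.2.L lie at 654 to 1910 and those of nodal1.L at 401 to 1265, while AP points stay at 0 for nodal5.2.L and at or below 70 for nodal1.L.

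The remaining 4 copies were sparse. In VP, nodal1.S was above 0 in 6 of 23 libraries and reached 58 and 73 in replicates 4 and 5 at 9 hpf, nodal5.5.L was above 0 in 6 and reached 115, nodal5.8.L was above 0 in 5 and reached 110, and nodal5.6.L was above 0 in 2 and reached 60. In AP, nodal1.S and nodal5.5.L were at 0 throughout, and nodal5.6.L and nodal5.8.L both stood at 24 in replicate 2 at 7 hpf, where nodal6.S was at 64. These 4 genes did not reach 10 in at least 3 libraries of experiment 1 and were left out of the fits below. The 5 genes that passed reached this in VP and not in AP, and almost only after 5 hpf. The number of them called is therefore a description and lends no weight to a difference between the regions or between the times.

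Differences were tested with limma on log2(value + 1) over the 30 libraries of experiment 1, with p-values adjusted by the Benjamini-Hochberg method over all 19896 genes. A gene was called at an adjusted p under 0.05. Where a group was at 0 in every library, the adjusted p is given without a fold change. VP against AP at 9 hpf gave calls for nodal5.2.L (limma, adjusted p = 0.00787) and nodal6.L (limma, adjusted p = 0.0225), with AP listed at 0 for both. For nodal1.L, VP exceeded AP by 7.24 ± 1.97 (SE) on the log2 scale and the limma adjusted p was 0.0645. For nodal5.L and nodal6.S it was 0.250 and 0.273, again with AP at 0. So 2 of the 5 genes fitted were called, where 0.246% of all genes tested were called higher in VP.

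The ranges of the groups were compared as well. At 9 hpf every VP library of experiment 1 lay above every AP library for 4 of the 5 genes (nodal1.L, nodal5.2.L, nodal6.L and nodal6.S), and the same 4 genes showed no overlap over the libraries of both experiments. Over all genes tested, 3.56% had VP above AP without overlap in experiment 1 and 1.58% in both experiments. The lowest of these VP values was 2, for nodal6.S in replicate 2. Because the 5 genes passed the filter through VP and not AP libraries, this count too is a description. It lends no weight to a difference between the regions.

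Both calls at 9 hpf were lost without any 1 of the 3 replicate numbers. Without replicates 1, 2 and 3 in turn, the limma adjusted p of nodal5.2.L was 0.128, 0.0663 and 0.200, and that of nodal6.L was 0.179, 0.148 and 0.313. For nodal1.L it was 0.521, 0.0473 and 0.987, so leaving out all libraries numbered 2, over every region and time, brought a call. Which of these libraries brought it was not tested. With a pseudocount of 10, nodal1.L was also called (limma, adjusted p = 0.00133). So it was with no filter on low values (limma, adjusted p = 0.0294) and without mean trend and robust settings (0.0245). With the clutch of experiment 2 added, 4 clutches in all, 5 of the 5 genes were called in limma, where 0.618% of all genes were called higher in VP, with adjusted p of 4.2e-05 for nodal5.2.L, 0.000409 for nodal6.L, 0.00113 for nodal1.L, 0.0114 for nodal5.L and 0.0157 for nodal6.S. An exact permutation test of the VP values of the 4 clutches against their AP values, taken as unpaired, gave a two-sided p = 0.0286, the smallest that 4 against 4 allows, for nodal1.L, nodal5.2.L, nodal6.L and nodal6.S at 9 hpf, and p = 0.143 for nodal5.L. Adjusted over the 30 gene and time pairs of this family, the exact permutation p was 0.214 for those 4 genes, so none passed. Full separation of all 5 fitted genes at 9 hpf alone could not have passed either. With so few clutches and so many pairs, this adjusted test could therefore not decide on the differences at 9 hpf.

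Before 9 hpf the limma fit called 0 of the 5 genes between the regions, beside 0.0955% of all genes higher in VP at 5 hpf and 0.0151% at 6 hpf. At an unadjusted p under 0.05, the fit had 0, 1, 2 and 2 of the 5 genes for 5, 6, 7 and 8 hpf. Beside these stood 854, 1266, 692 and 1349 of all 19896 genes at these times, in either direction. At 7 hpf the 3 VP values of nodal5.2.L (80, 141 and 211) lay above an AP group listed at 0, as did those of 3.04% of all genes, yet the limma adjusted p was 0.886, from an unadjusted p of 0.00122, and limma called 0.0101% of all genes higher in VP at that time. At 8 hpf limma called 0 genes of any kind as higher in VP, and 1349 of either direction passed an unadjusted threshold of 0.05. No member had VP above AP without overlap at 8 hpf, beside 1.59% of all genes. Adjusted p for the 5 genes at 8 hpf ran from 0.672 to 0.800. The emptiest VP library stands in that group, and its part in these values was not tested beyond leaving it out, which gave no call at 8 hpf either.

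Within VP, 9 against 5 hpf was called in limma for nodal1.L (adjusted p = 0.00266, listed at 0 at 5 hpf) and for nodal5.2.L, which was higher by 9.00 ± 2.17 (SE) on the log2 scale (limma, adjusted p = 0.00890). For nodal6.L, read at 93 in 1 library at 5 hpf, the difference was 6.80 ± 2.21 and the limma adjusted p was 0.111. The limma adjusted p was 0.131 for nodal5.L and 0.142 for nodal6.S, both listed at 0 at 5 hpf. The 2 calls among 5 genes stand beside 1.22% of all genes called higher. These genes passed the filter almost only through VP libraries after 5 hpf, so counts of them over time are a description. All libraries at 9 hpf exceeded all at 5 hpf for 4 of the 5 genes, nodal5.L being the exception, beside 5.44% of all genes. Without replicates 1, 2 and 3 in turn the limma adjusted p of nodal1.L was 0.149, 0.0270 and 0.125 and that of nodal5.2.L was 0.311, 0.0374 and 0.163. With the clutch of experiment 2 added, 5 of 5 genes were called, beside 2.06% of all genes. That clutch has no library at 5 hpf and adds nothing to that group. The fit assumes 1 shift between the experiments for all regions and times.

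Earlier steps in VP were not called. At 6, 7 and 8 hpf against 5 hpf, limma called 0 of the 5 genes, and it called 0 genes of any kind as higher. An unadjusted p under 0.05 held for 1, 2 and 2 of the 5, beside 981, 484 and 1265 of 19896 genes in either direction. For 9 against 8 hpf, limma called 0 of the 5 genes, with adjusted p from 0.615 to 0.822, beside 0.0151% of all genes called higher. Of the 5 genes, 3 had an unadjusted p under 0.05, beside 1330 of 19896 in either direction. In that last step the values of nodal1.L did not overlap (629, 401 and 970 at 9 hpf against 212, 0 and 65 at 8 hpf), as for 3.77% of all genes, and those of the other 4 did. Within AP, limma called 0 of the 5 genes at any time against 5 hpf, and 0 had an unadjusted p under 0.05. The fit called 0, 0.0101, 0.0653 and 1.72% of all genes higher at 6, 7, 8 and 9 hpf. Of all 19896 genes, 686, 771, 1342 and 2043 had an unadjusted p under 0.05 at these times. The interaction, the VP change from 5 to 9 hpf minus the AP change, was called for 0 of the 5 genes in limma, although all 5 had an unadjusted p under 0.05, and adjusted p ran from 0.809 to 0.946. Limma called 0 genes of any kind for it, and 1042 had an unadjusted p under 0.05.

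In the 1 clutch of experiment 2 every one of the 5 genes was above 0 in both technical replicates at 8 and 9 hpf, so the last hour can be given as a ratio of means, with no test. The mean VP count at 9 hpf over that at 8 hpf was 9.53 for nodal1.L (1125 against 118), 4.86 for nodal5.2.L, 4.21 for nodal6.L, 3.53 for nodal6.S and 2.31 for nodal5.L. The largest ratio among these 5 was that of nodal1.L, but other nodal genes of the same clutch stood above it. It was 14.2 for nodal2.L, and 18.7 for the sparse nodal1.S, from a mean of 3.5 at 8 hpf. For nodal.L it was lower, at 6.87. In experiment 1 the count of nodal1.L divided by that of nodal5.2.L in the same VP library, a ratio that also depends on transcript lengths not given here, was 0.421, 0.613 and 1.43 at 9 hpf, against 0.274 and 0.739 in the libraries at 8 hpf that had a count. These ranges overlapped.

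Summing the copies of each symbol left the pattern in place. For nodal5, VP against AP at 9 hpf had a limma adjusted p of 0.0130 and 9 against 5 hpf in VP one of 0.0139. For nodal6 the limma adjusted p was 0.0292 and 0.110, and for nodal1 0.0765 and 0.0166. The calls by gene were thus the same as for the single copies nodal5.2.L, nodal6.L and nodal1.L. In the RefSeq table of assembly v10.1, which listed 6 of the 9 members, nodal5.L, nodal5.2.L and nodal6.L follow one another with 0 protein-coding genes between them, nodal1.L lies beside nodal2.L with 0 between, and 11 lie between nodal1.S and nodal6.S. Adjacent copies were not read together in every library: in VP replicate 3 at 9 hpf, nodal5.2.L and nodal6.L were above 0 and nodal5.L, in the same cluster, was at 0.

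Across all 46 libraries the patterns of the 5 genes were alike to differing degrees. Pearson's r of log2(value + 1) ran from 0.57 for nodal5.L with nodal6.S to 0.837 for nodal5.2.L with nodal6.S, and shared zeros in AP and in sparse libraries enter every such value. Of all genes tested, those most like nodal5.2.L were LOC108702204 (r = 0.901), nodal.L (0.878), sia1.S (0.875), bix1.3.S (0.863) and xenf.L (0.860). Those most like nodal6.L were Xelaev18042019m (0.849), mixer.S (0.844), sia2.S (0.822), nodal5.2.L (0.804) and LOC108703520 (0.796). Here sia1 and sia2 encode Siamois homeodomain factors of the dorsal organizer, and mixer and bix1 encode homeodomain factors of endoderm and mesoderm.

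For nodal6.S the most alike were sia1.S (0.896), mespb.L (0.846), nodal5.2.L (0.837), mespb.S (0.781) and LOC108712674 (0.772). For nodal1.L they were LOC108706156 (0.868), mig30.L (0.866), LOC108705534 (0.860), LOC108713510 (0.859) and slc5a8.1.L (0.849), and for nodal5.L LOC108718316 (0.874), LOC108703371 (0.860), nptx2.S (0.845), homeobox100496651-provisional.L (0.844) and pcdh8.2.S (0.841). No member of the family was among the 5 genes most like nodal1.L or nodal5.L. Over the 30 libraries of experiment 1 alone, 1 of the 5 genes named for nodal1.L was again among its 5 most alike, 3 for nodal5.L and 2 for each of the other 3 genes.

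Other genes of the pathway were read by role, from lists of known members. Other Nodal-class ligands had 12 copies, of which 8 were tested. None was called between VP and AP at 9 hpf in limma, with a median difference of 4.22 on the log2 scale, against -0.53 for all genes tested. In VP, 3 were higher at 9 than at 5 hpf, beside 1.22% of all genes, with a median of 5.503, against -0.24 for all genes. The 3 were nodal.L, gdf3.S and nodal3.1.L.

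Values of nodal.L in VP at 9 hpf were 253, 34 and 774, against 0 in all 3 VP libraries at 5 hpf (limma, adjusted p = 0.0102), and 5, 0 and 0 in AP at 9 hpf. The related ligand gdf3.S counted 1756, 2147 and 2555 in VP libraries against 65, 602 and 127 in AP libraries at 9 hpf, and was higher in VP at 9 than at 5 hpf by 9.90 ± 2.44 (SE; limma, adjusted p = 0.0110). Copy nodal3.1.L, of the nodal3 genes that induce neural and organizer properties in place of mesoderm, counted 881, 130 and 422 in VP libraries against 0, 55 and 0 in AP libraries at 9 hpf (limma, adjusted p = 0.0388 for 9 against 5 hpf in VP). All 3 were near 0 in VP at 5 hpf, which picking by a rise from that time favours. In AP at 9 hpf, gdf3.S differed from the members in being above 0 in all 3 libraries. Not every ligand of the list rose: gdf1.L had a VP mean of 625 at 5 hpf and 169 at 9 hpf (limma, adjusted p = 0.906).

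Between VP and AP at 9 hpf, and between 9 and 5 hpf in VP, no tested gene that receives or passes on the signal was called in limma. Of 9 receptor and co-receptor copies tested (12 in all), limma called 0 between the regions at 9 hpf, with a median of -0.25, and 0 between 9 and 5 hpf in VP, with a median of -0.48. The co-receptor copy tdgf1.3.L counted 451, 673 and 354 in VP libraries against 514, 1078 and 1147 in AP libraries at 9 hpf (limma, adjusted p = 0.973). Of the 11 copies of Smad2, Smad3, Smad4 and Foxh1 genes, all tested, limma called 0 in either contrast. For foxh1.2.L the VP mean was 302 at 9 hpf, listed at 0 at 5 hpf (limma, adjusted p = 0.0535). Its AP mean was 0 at 5 hpf and 1882 at 9 hpf. Copy smad4.1.S counted 2246, 2433 and 2114 in VP libraries against 1381, 2213 and 3079 in AP libraries at 9 hpf, a difference of 0.10 ± 0.60 (SE; limma, adjusted p = 1), and the groups overlapped.

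Of 5 convertase copies, 1 was higher in VP at 9 hpf, beside 0.246% of all genes: pcsk6.L had 640, 450 and 1120 in VP against 0, 6 and 0 in AP, a difference of 8.49 ± 2.21 (SE; limma, adjusted p = 0.0416). In VP at 5 hpf it already had 703, 331 and 171. This gene for a ligand-processing enzyme was thus read in VP from the earliest time, when its AP mean was 49.7. It was not called between 9 and 5 hpf in VP (limma, adjusted p = 0.980). How much of its captured RNA was newly made was not tested, there being no library without EU.

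Among 11 tested antagonist copies (12 in all), limma called 0 between the regions at 9 hpf and 2 as higher in VP at 9 than at 5 hpf, the feedback inhibitors lefty.L and lefty.S. These 2 stand beside 1.22% of all genes called higher. For lefty.L, VP values were 926, 855 and 1032 at 9 hpf, against 0, 5 and 0 at 5 hpf, a difference of 9.01 ± 2.18 (SE; limma, adjusted p = 0.00955). AP values of lefty.L at 9 hpf were 4, 13 and 82, all below VP, and the limma adjusted p between the regions was 0.402. For lefty.S, VP values were 567, 380 and 153 at 9 hpf and 0 at 5 hpf (limma, adjusted p = 0.0119).

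Among upstream regulators, 3 of 12 tested copies (13 in all) were higher in VP at 5 hpf in limma, with a list median of 0.44 on the log2 scale, against 0.01 for all genes, and beside 0.0955% of all genes: hwa.L, the maternal gene of the dorsal determinant Huluwa, vegt.S and vegt.L. At that time hwa.L counted 2891, 3440 and 3014 in VP libraries against 72, 0 and 0 in AP libraries (limma, adjusted p = 0.000457), and vegt.S counted 1388, 750 and 1291 in VP libraries against 80, 44 and 1 in AP libraries, a difference of 5.83 ± 1.24 (SE; limma, adjusted p = 0.0104). At 9 hpf 2 were called higher in VP, with a list median of -0.21, beside 0.246% of all genes. These were hwa.L, by 7.40 ± 1.70 (SE; limma, adjusted p = 0.0116), and vegt.S, by 4.93 ± 1.24 (SE; limma, adjusted p = 0.0269). In the same 3 VP libraries at 5 hpf, the Nodal ligand genes had 3 of 27 values above 0, at 93 for nodal6.L, 17 for nodal1.S and 4 for nodal5.2.L. Since hwa and vegt are maternal genes, how much of their captured RNA was newly made was not tested, there being no library without EU.

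Of 37 copies of known Nodal target genes, 35 were tested. In VP, 28 were higher at 9 than at 5 hpf and 0 lower, with a median of 9.05 on the log2 scale. Of all genes 1.22% were called higher, with a median of -0.24. Rises in VP over this time were not confined to the pathway lists. Of 14 tested animal marker copies, 3 were higher at 9 than at 5 hpf, foxi4.2.L and foxi4.2.S among them, with a median of 3.49. Of 11 copies of dorsal and zygotic onset markers, 5 were higher, gs17.L, gs17.S, pou5f3.2.L and pou5f3.2.S among them, with a median of 4.78. Between the regions at 9 hpf, 5 target copies were higher in VP and 0 lower (mixer.S, gata4.S, gata6.S, gsc.S and hhex.L), with a median of 6.14. Of all genes 0.246% were called higher in VP, with a median of -0.53. Of the 14 tested animal marker copies, 3 were lower in VP at 9 hpf and 0 higher, with a median of -3.15. Beside them, 26 of all 19896 genes were called lower in VP. The 3 were cdh1.S, krt70.S and vgll4l.L, each listed at 0 in VP of experiment 1 (limma, adjusted p = 0.0116, 0.0140 and 0.0162). For mixer.S, VP values at 9 hpf were 4257, 1167 and 2562, against 1, 0 and 0 in AP, a difference of 10.86 ± 2.20 (SE; limma, adjusted p = 0.00283). Values of foxa4.S, a forkhead gene of endoderm and axial mesoderm, were 2979, 1325 and 2061 in VP and 13, 114 and 0 in AP at 9 hpf, with 0 in VP at 5 hpf (limma, adjusted p = 0.000703 for 9 against 5 hpf). Its homeolog foxa4.L had 2880, 1667 and 2115 in VP at 9 hpf (limma, adjusted p = 0.00149 against 5 hpf). Values of bix1.2.L were 5407, 2096 and 5415 in VP and 0, 144 and 48 in AP at 9 hpf, and 0 in VP at 5 hpf (limma, adjusted p = 0.00176 for 9 against 5 hpf).

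**Figure D3:**
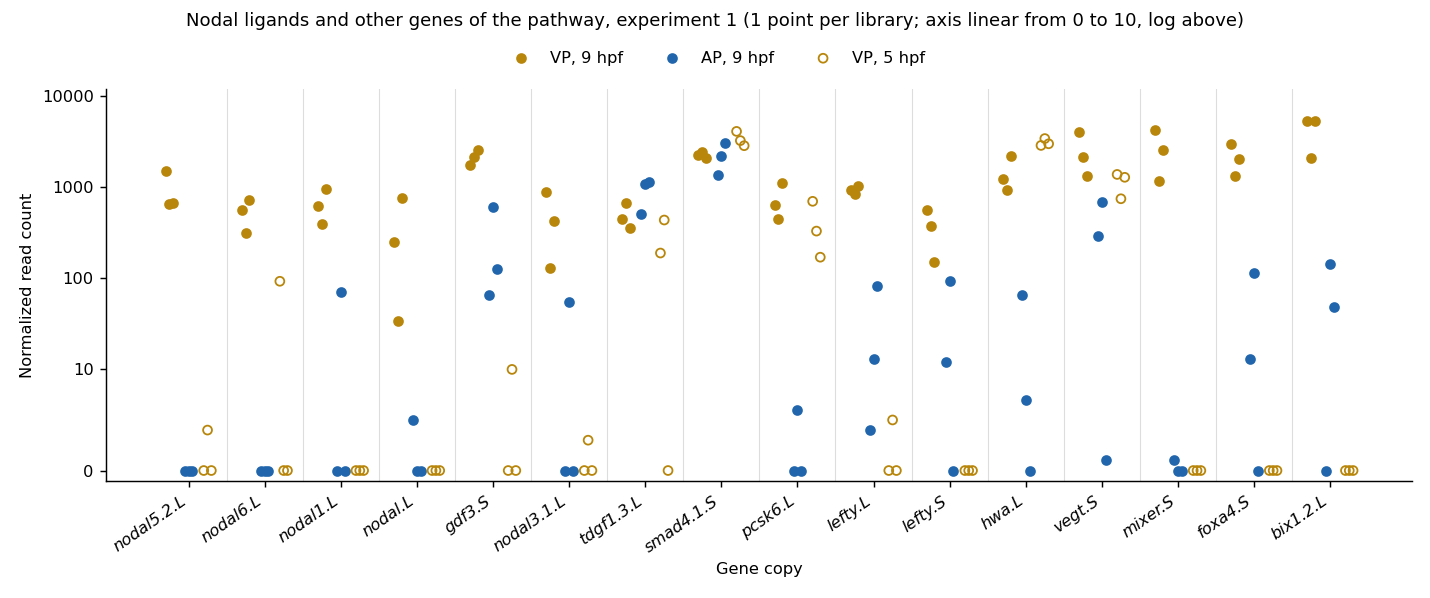
Normalized read counts (vertical axis, linear to 10 and logarithmic above) of 3 Nodal ligand genes and 13 other genes of the pathway in experiment 1, with VP at 9 hpf, AP at 9 hpf and VP at 5 hpf from left to right for each gene and 1 point per library. The ligands, lefty.L, lefty.S and the targets stand near 0 in VP at 5 hpf, apart from nodal6.L at 93 in replicate 1. There hwa.L, vegt.S, pcsk6.L and smad4.1.S already have counts. At 9 hpf smad4.1.S has like counts in VP (2114 to 2433) and AP (1381 to 3079).

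The medians of these lists include genes listed at 0 in one group and therefore depend on the 1 added to each value. Over all genes tested, 49 were higher and 26 lower in VP than in AP at 9 hpf, and 243 were higher and 6 lower in VP at 9 than at 5 hpf. Leaving out 1 replicate number at a time gave 1 to 47 calls for the regions and 0 to 191 for the times, and which pathway genes were among them was not followed.

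**Figure D4:**
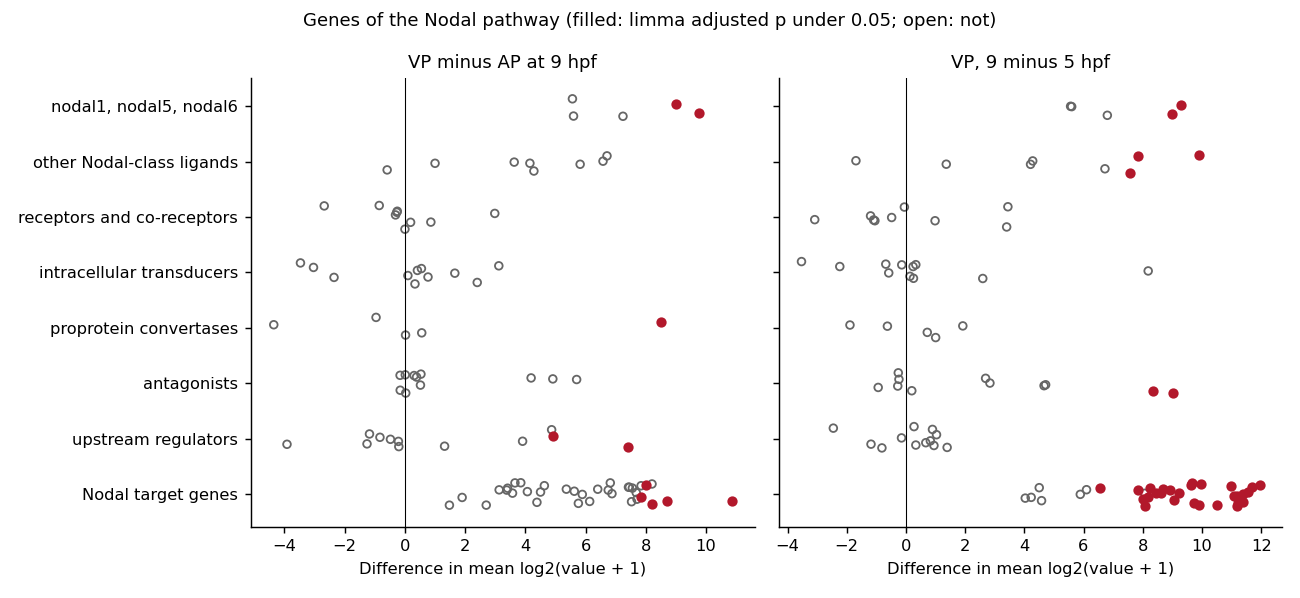
Fitted difference in mean log2(value + 1) from limma for each tested gene copy, by role in the pathway, for VP minus AP at 9 hpf (left) and VP at 9 minus 5 hpf (right), filled where the adjusted p was under 0.05. Receptors and transducers have list medians of -0.25 and 0.42 between the regions. The ligands and targets lie mostly to the right of 0, with 28 of 35 targets filled in the right panel, beside 1.22% of all genes called higher there. Where a gene is listed at 0 in one group its position depends on the 1 added.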

How the data were processed

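Captured EU-RNA was sequenced from VP and AP regions in 46 libraries. Per the submitters' processing notes, the authors used Salmon 0.12.0 and DESeq2. The sources used here give no version of that second tool, no genome build and no annotation. The deposited values are whole-number scores, which behaved as read counts already scaled and rounded: over the 526 genes with no 0, fresh median-ratio factors were 1.012 to 1.136. The design had left raw counts possible, so its limma test took the place of a count test. Sequencing depth is unknown, and neither an interval nor a detection floor could be given. Of 50489 entries, 1256 repeated the name of another and were added to it.

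The 19896 genes that reached 10 in 3 or more libraries of experiment 1 were fitted with limma 3.58.1 in R 4.3.3 on log2(value + 1), with 1 coefficient per region and time, mean trend and robust settings, two-sided, with Benjamini-Hochberg adjustment per contrast. Fold changes on this scale understate the change of low genes. Permutation tests used scipy 1.17.1, with technical replicates averaged. Whether a replicate number means the same clutch across groups is not said in the labels, so numbers were no block in the model. The limma script was tested on simulated data. Alternatives covered scaling, pseudocount, filter, test settings, libraries and replicates.

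The members and gene lists were chosen with earlier results of these data known. All members were named. From each list of pathway roles the text names copies called in VP against AP at 9 hpf or VP at 9 against 5 hpf, up to 4 by adjusted p, otherwise the copy with the highest mean, and the 5 genes most like each fitted member. For the marker lists the rule was followed in part. It also gave the vegetal markers pgat.L and ddx25.L, which are not described above. Genes named outside this rule were added after their values were seen. They were vegt.L at 5 hpf, velo1.L among the vegetal markers, vgll4l.L among the animal markers and foxh1.2.L among the transducers. Further ones were gdf1.L and nodal2.L among the other ligands, and gata4.S, gata6.S, gsc.S and hhex.L as the other called targets. Gene neighbours came from RefSeq, assembly v10.1.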

Additional observations from a re-analysis of the deposited data

How the results depend on the processing

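The number of Nodal ligand genes called was 2 for VP against AP at 9 hpf and 2 for VP at 9 against 5 hpf. With only the groups compared in the fit these became 0 and 0, with the clutch of experiment 2 added 5 and 5, and likewise 5 and 5 when the VP libraries of experiment 2 at 7 hpf were then left out, an alternative chosen after seeing the data. A pseudocount of 10 gave 4 for 9 against 5 hpf. Leaving out 1 replicate number gave 0 to 1 between the regions and 0 to 2 between the times. The cause of these shifts was not tested beyond the fewer or additional libraries they use. Between the regions, a pseudocount of 10, no filter and no mean trend each gave 3, with nodal1.L added. Both rescalings, the stricter filter, pseudocount 0.5, summed copies and leaving out VP replicate 2 at 8 hpf gave 2 and 2. The count of ligand genes was 0 in the other 13 contrasts under every alternative run. In the 2 contrasts with calls, no fitted difference of a ligand gene changed sign. In uncalled contrasts signs could change, as for nodal1.L in VP against AP at 7 hpf, at 1.06 with the clutch of experiment 2 added and -1.30 without it. Over all genes, the calls ran from 1 to 233 between the regions (75 as reported) and from 0 to 474 between the times (249 as reported). Rescaling to equal totals moved the median log2 difference over all genes by 0.106 for VP against AP at 9 hpf, 0.107 for 6 against 5 hpf in VP, -0.15 for 9 against 5 hpf in AP and 0.173 for the interaction.

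With the replicate number as a block, the counts were 3 and 2, nodal1.L being added between the regions (limma, adjusted p = 0.0416). Residual correlations between VP and AP libraries of equal number were -0.024 to 0.103, with a median of 0.028. Those of unequal number at the same time were -0.113 to 0.078, with a median of -0.013, so the ranges overlapped. Among the 3 AP libraries of its time, 11 of 15 VP libraries correlated best with that of their own number, a hint from the data and not from the design. The exact permutation test gave 0 calls with a pseudocount of 10 as well. What limits all of this is the number of clutches and the many values listed at 0. The limma p-values of experiment 1 rest on 1 spread per gene, shared over its 10 groups. That spread includes AP groups listed at 0 throughout, so it is not the spread of the compared groups alone. The p-values with the clutch of experiment 2 added cover both experiments.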

Other observations

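The technical replicates of experiment 2 did not give the same Nodal ligand genes in VP at 7 hpf. In the same clutch, nodal1.L was at 560 in replicate 4 and 0 in replicate 5, while nodal6.L was at 0 in replicate 4 and 610 in replicate 5, and the other 7 genes were at 0 in both. At 9 hpf the same pair read 1827 and 1910 for nodal5.2.L, 487 and 498 for nodal6.S and 1265 and 985 for nodal1.L. For their level, the sparse copies were further apart in part. Replicates 4 and 5 read 42 and 115 for nodal5.5.L, 110 and 32 for nodal5.8.L, and 58 and 73 for nodal1.S.

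In AP at 7 hpf, replicate 2 had the fewest genes above 0 of all AP libraries (7910) and held 3 of the 7 AP values above 0, at 64 for nodal6.S and 24 for both nodal5.6.L and nodal5.8.L. What these copies share in sequence was not tested here.

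Copy nodal2.L, which lies beside nodal1.L and was picked after its values were seen, counted 454, 54 and 423 in VP libraries against 0, 58 and 0 in AP libraries at 9 hpf, with 1447 and 1340 in VP of experiment 2 at that time.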
